A study of Schizosaccharomyces pombe with 2 samples.

Results

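The gained segment of chromosome III that both sap1-1 revertants of fission yeast carry was examined on either side of the sap1 gene, with sap1 and its 10 kb flanks left out. Its members were chosen by the measured log2 ratios of these arrays, as the tiled positions of the array named for chromosome III that start at 492017 to 551575 (left side) or at 573767 to 612386 (right side). They comprise 321 of 41551 tiled positions, 192 on the left side over 59.6 kb and 129 on the right side over 38.6 kb. Because the ratio of revertant to wild type chose the segment, its level is given as a description and no test is made of it. An exact two-sided sign permutation of 2 arrays could in any case not give a p below 0.5.

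Copy number was measured by comparative genomic hybridisation, in which DNA of 2 strains is labelled with different dyes and bound to the same array of short DNA spots laid along the genome. Both arrays carried DNA of a sap1-1 revertant (strain 972h, genotype sap1-1) labelled with Cy5, against DNA of a wild-type strain (972h) labelled with Cy3. The 2 revertant samples, replicate 1 and replicate 2, form the only group, and nothing in the labels says whether they came from separate isolates or whether the wild-type DNA was the same. DNA of sap1-1 cells before reversion was not analysed here.

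In a revertant, the phenotype of a mutation is no longer seen. Sap1, which cells need to live, binds DNA where replication forks are made to pause and at long terminal repeats (LTRs), the end sequences of retrotransposons. Fission yeast cells are mostly haploid, so that a second copy of a stretch brings a second copy of every gene in it, whatever the gene does. All values below are log2 ratios of revertant over wild type, centred on the median of each array, on which a ratio of 2 to 1 is 1. Genes are named by the ASM294v3 annotation. The array's positions come with no named genome build in the sources used here. On the left and right sides, wild-type brightness correlated best with the base composition of that assembly at shifts of 80 and 260 bases. These best correlations were weak (0.19 and 0.18), against 0.16 and 0.11 without a shift. On the right the most negative one over the shifts tried was -0.18. The shifts are thus no measured offset, and positions were used without one.

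The segment was tiled in steps of 300 bases, with 6 of its 327 steps empty. All 6 empty steps lay in eft202, a gene of translation elongation factor 2, which held 9 steps of which 3 were tiled. A near-identical gene, eft201, lies on chromosome I, and 0 of the 42 steps within 5 kb of it were empty. The coding sequences of the pair have 2529 bases each and differ at 11 of them (99.6% identity, with a longest identical run of 587 bases). The first 120 coding bases, read from ASM294v3 by that assembly's own annotation, are shown because all empty steps of the segment lie in this gene. The capitals mark the 4 bases that differ.
eft202, chromosome III, 537290 to 539922, plus strand: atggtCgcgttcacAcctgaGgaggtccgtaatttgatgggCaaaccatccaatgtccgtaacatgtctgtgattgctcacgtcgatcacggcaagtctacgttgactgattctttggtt
eft201, chromosome I, 2907643 to 2910261, minus strand: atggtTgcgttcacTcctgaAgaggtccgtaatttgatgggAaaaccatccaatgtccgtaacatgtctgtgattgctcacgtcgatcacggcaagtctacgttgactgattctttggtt

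The left side also contained a pair of LTRs in opposite orientation. Their first 60 bases are shown because 1 of the steps over them was below 0 on both arrays. The capitals mark the TGT with which the first of them starts, a start that the second lacks. The pair was 75.7% identical over aligned bases without gaps. With gaps counted, as was done for the gene pairs, it was 57.6% identical.
LTR, chromosome III, 499951 to 500308, plus strand: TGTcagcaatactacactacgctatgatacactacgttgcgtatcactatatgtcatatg
LTR, chromosome III, 500370 to 500717, minus strand: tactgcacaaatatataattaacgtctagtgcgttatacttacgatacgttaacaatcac

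Both sides of sap1 were present at close to a doubled ratio in both revertants. Over all 321 positions the median log2 ratio was 0.96 in replicate 1 and 0.92 in replicate 2, a mean of 0.94 ± 0.03 (SD, n = 2) or 1.92-fold. In comparison stretches of the same chromosome, from 50000 to 420000 and from 630000 to 1000000 (2449 positions), replicate 1 had a median of 0.08 and replicate 2 one of 0.05. The position ratios of the segment were above 0 at 287 positions (89.4%) in replicate 1 and at 284 (88.5%) in replicate 2, against 55.4% and 53.4% in the comparison stretches and 49.7% of all other positions on each array. A ratio of at least 0.5 on both arrays was found at 224 of the 321 positions (69.8%), at 14.5% of all positions of the array and at 17.6% of the comparison stretches. The first of these shares follows from how the segment was chosen.

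The level of the left side was 0.98 ± 0.04 (SD, n = 2; 1.97-fold), with 1.01 in replicate 1 and 0.95 in replicate 2. The level of the right side was 0.90 ± 0.01 (1.87-fold), with 0.91 in replicate 1 and 0.90 in replicate 2. The excluded stretch between them, sap1 with its flanks, had 0.93 in replicate 1 and 1.00 in replicate 2 over 74 positions. The left side was thus above the right by 0.10 in replicate 1 and by 0.05 in replicate 2 (0.08 ± 0.03, SD, n = 2). With means of the positions in place of medians the difference was 0.13 on each array (0.13 ± 0.0027). Single positions of the left and right overlapped widely, with SDs of 0.64 and 0.62 on the left and 0.66 and 0.65 on the right. Shares of positions at or above 0.5 on both arrays were 71.4% on the left (137 of 192) and 67.4% on the right (87 of 129).

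**Figure D1:**
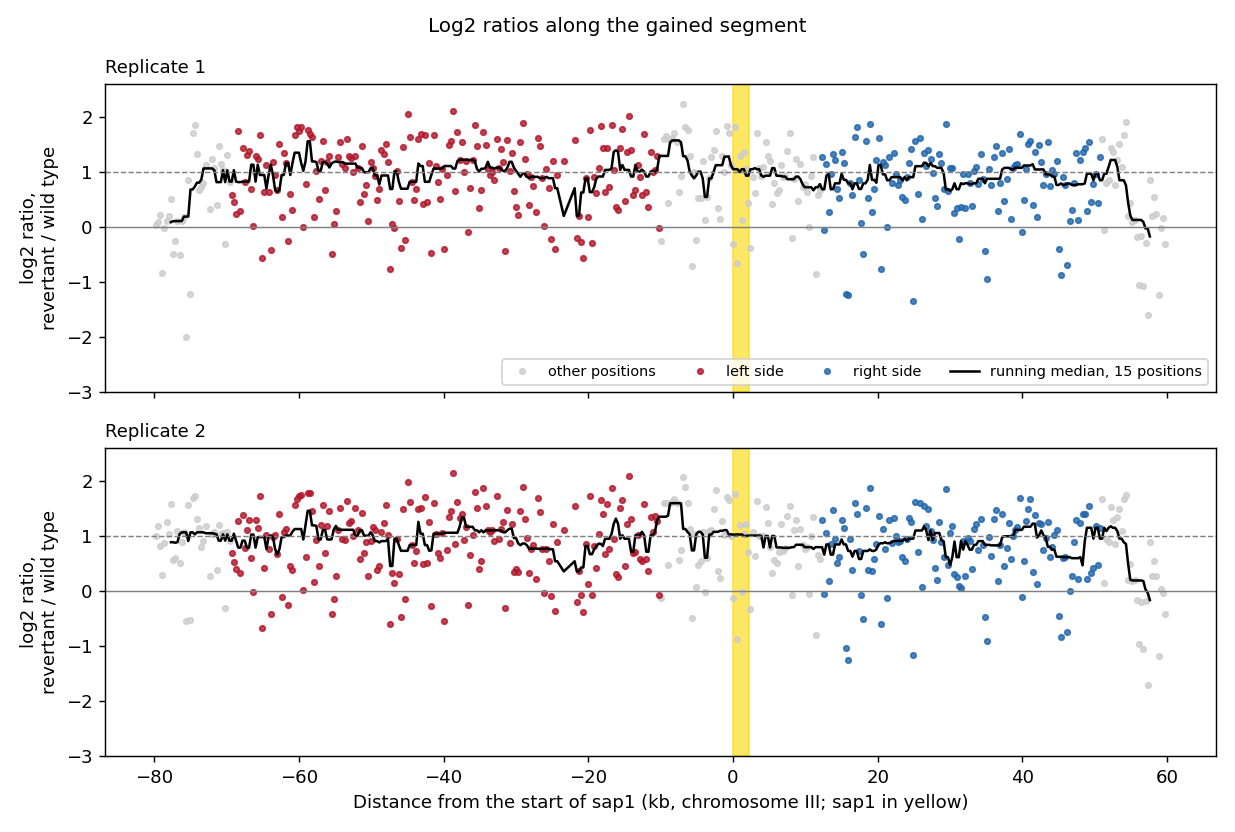
Log2 ratio of revertant over wild type (y axis) by distance from the start of sap1 in kb (x axis), 1 panel per replicate. Red points are the left side, blue points the right side, grey points other positions including the sap1 flanks, and the black line is a running median over 15 positions. The dashed line marks 1. The medians of the left side (1.01 in replicate 1 and 0.95 in replicate 2) and of the right side (0.91 and 0.90) lie near the dashed line.

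The sides differed in brightness as well as in ratio. The median log2 signal of the revertant channel was 11.32 on the left and 10.86 on the right in replicate 1, and 11.29 on the left and 10.78 on the right in replicate 2. The wild-type channel was brighter on the left too, with 10.24 on the left and 9.79 on the right in replicate 1, and 10.23 on the left and 9.80 on the right in replicate 2. Ratios moved with brightness, which is why these values stand beside the difference between the sides. The correlation of ratio and wild-type brightness over the 321 positions was 0.34 in replicate 1 and 0.40 in replicate 2, and over the comparison stretches 0.25 and 0.27. The positions of an array share its labelling and scan, and the ratio contains the wild-type signal, so that these correlations are descriptions only.

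Within 4 classes of wild-type brightness (1 the dimmest, 4 the brightest, bounded by the quartiles over the segment) the order of the sides was not constant. In class 1 the left side had 0.61 ± 0.05 (SD, n = 2 arrays; 45 positions) and the right side 0.64 ± 0.06 (35 positions). In class 2 the left side had 0.50 ± 0.03 and the right side 0.64 ± 0.17. In class 3 the left side had 1.16 ± 0.02 and the right side 0.98 ± 0.03, and in class 4 the left side had 1.29 ± 0.01 and the right side 1.14 ± 0.05. In classes 1 and 2 the left side was below the right by less than the SD of the right side over the arrays, and in classes 3 and 4 it was above the right on both arrays. Averaged over the classes the left side exceeded the right by 0.040, a smaller difference than the plain one of 0.08. In each of the 4 classes both sides lay above the comparison stretches, which ran in order of brightness through -0.19, -0.09, 0.08 and 0.22.

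**Figure D2:**
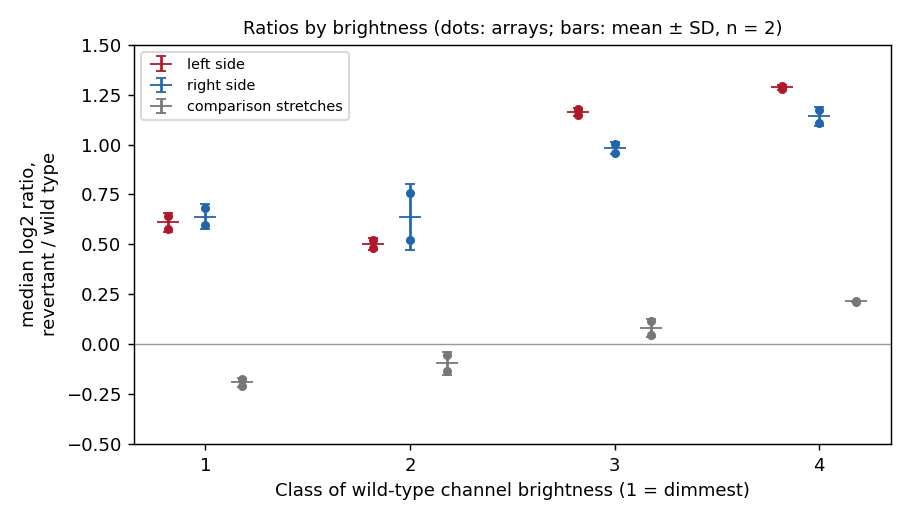
Median log2 ratio (y axis) by class of wild-type channel brightness, 1 being the dimmest (x axis), for the left side, the right side and the comparison stretches. Dots are the 2 arrays, and bars give their mean ± SD. Class 4 has 1.29 on the left, 1.14 on the right and 0.22 in the comparison stretches, and class 1 has 0.61, 0.64 and -0.19.

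Both channels differed between the segment and the comparison stretches. The median log2 signal of the revertant channel was 11.02 in the segment and 10.54 in the comparison stretches in replicate 1, and 10.97 in the segment and 10.47 in the comparison stretches in replicate 2. The wild-type channel had 10.03 in the segment and 10.38 in the comparison stretches in replicate 1, and 10.07 in the segment and 10.40 in the comparison stretches in replicate 2. The segment was thus brighter than the comparison stretches in the revertant DNA, by 0.48 and 0.50, and dimmer in the wild-type DNA, by log2 differences of -0.35 and -0.32. What made its positions dimmer in the wild type was not tested. None of the members was flagged as an outlier or as dim, and 1 was saturated in replicate 1.

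The gain was even on the scale of several kb. Of the 5000-base windows with at least 10 positions, 18 lay wholly inside the segment, 11 on the left and 7 on the right. All 18 had a median of at least 0.5 on both arrays, as had 2.30% of 2480 such windows over the 3 chromosomes, which include these 18. That all 18 did so follows from how the segment was chosen. The values of the 18 windows ran from 0.70 to 1.19 with an SD of 0.14, and the 148 windows of the comparison stretches ran from -0.66 to 0.79 with an SD of 0.23. The choice of a short segment by high ratios can itself narrow the spread of its windows, so that these SDs are no test of evenness. On the left the windows ranged from 0.74 to 1.19, and on the right from 0.70 to 1.09. The highest window, from 500000 to 505000, had 1.19 on each array and holds raf2 and erv29. The lowest, from 605000 to 610000, had 0.79 in replicate 1 and 0.62 in replicate 2 and lies largely in rrp5. The lowest window of the left side, from 540000 to 545000, had 0.72 in replicate 1 and 0.76 in replicate 2 and lies mostly in tcb1. No window differed between the arrays by more than 0.20.

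There was little slope along either side. A straight line through the positions changed by 0.0026 per 10 kb in replicate 1 and by 0.0090 in replicate 2 on the left, and by 0.011 in replicate 1 and 0.014 in replicate 2 on the right. Neighbouring positions were almost unrelated, with a correlation of 0.03 between a position and the next, against 0.10 in the comparison stretches. The spread among positions was about as wide inside the segment as outside it. The SD over positions was 0.65 in replicate 1 and 0.63 in replicate 2 in the segment, against 0.64 and 0.63 in the comparison stretches. From the 5th to the 95th percentile, positions of the segment ran from -0.41 to 1.74 in replicate 1 and from -0.39 to 1.71 in replicate 2.

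That spread repeated from array to array. Over the 321 positions the replicates had a correlation of 0.98, and the SD of their difference was 0.13, with the largest difference at 0.47. In the comparison stretches the correlation was 0.97 and the SD of the difference 0.16. The correlation is a description over positions that share their spot design, their dyes and a slide. A position far from the median of the segment was thus far from it on both arrays, and 31 positions (9.66%) were below 0 on both, against 41.7% of the comparison stretches. These shares too follow from how the segment was chosen.

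**Figure D3:**
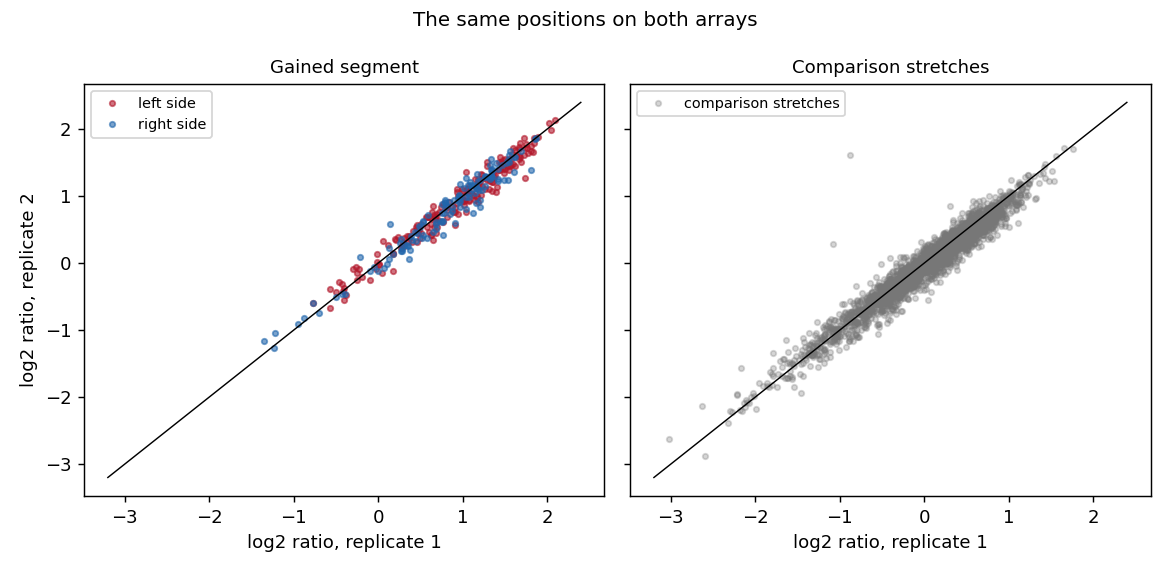
Log2 ratio in replicate 2 (y axis) against replicate 1 (x axis) for each tiled position, with the segment in the first panel (left side red, right side blue) and the comparison stretches in the second. The line marks equal values. Points follow the line in both panels (correlations 0.98 and 0.97), and those of the segment extend from -1.35 to 2.10 in replicate 1.

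The 5 lowest positions all lay on the right side. The position at 586500, in the P-type ATPase gene SPCC1672.11C, had -1.35 in replicate 1 and -1.16 in replicate 2. Those at 577500 and 577200, neighbours in utp21, had -1.23 and -1.22 in replicate 1, and -1.26 and -1.04 in replicate 2. The other two lay in fxn1 and rrp5. Of the 5 highest positions, 4 lay on the left side. The highest, at 522900 between genes, had 2.10 in replicate 1 and 2.14 in replicate 2, and the next, at 547200 in bir1, had 2.02 and 2.09. A low position did not make its gene low in every case: SPCC1672.11C had 13 of its 14 positions above 0 on both arrays.

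**Figure D4:**
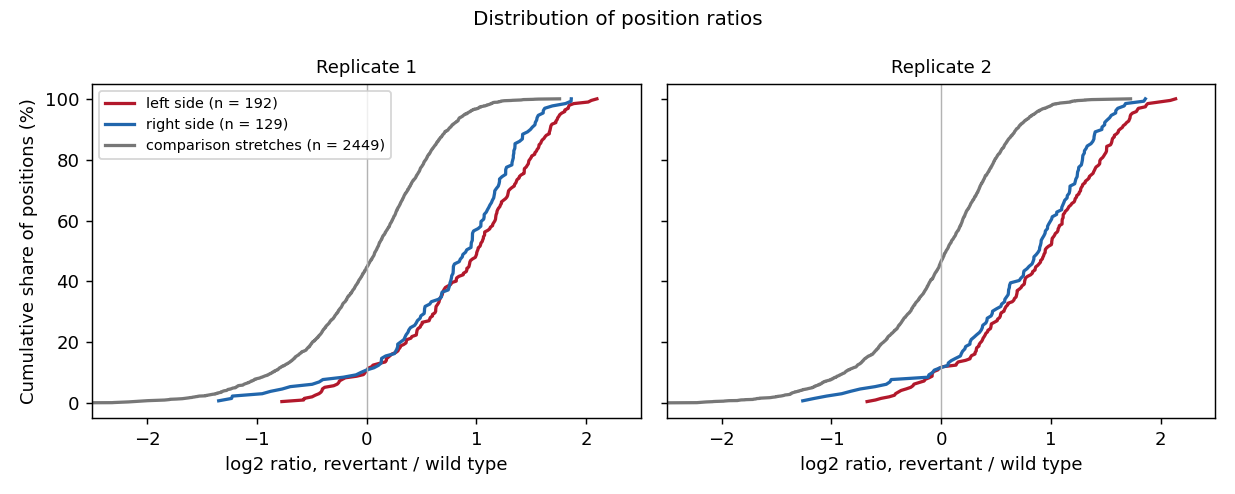
Cumulative share of tiled positions in % (y axis) by log2 ratio (x axis) in each replicate, for the left side (red), the right side (blue) and the comparison stretches (grey). The curves of both sides are displaced from the grey curve by a similar amount over most of their height, with medians of 1.01 (left), 0.91 (right) and 0.08 in replicate 1, and the right side has the longer tail below 0.

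Properties of the DNA that the choice of the segment did not use were set beside the ratios. Positions between protein-coding genes had 1.06 ± 0.07 (SD, n = 2; 48 positions) and those inside genes 0.93 ± 0.03 (273 positions), and the same order held in the comparison stretches (0.13 between genes and 0.05 inside them). Before labelling, the DNA was cut with AluI and RsaI, which recognise AGCT and GTAC, both palindromes. The 39 steps without either site had 1.17 in replicate 1 and 1.19 in replicate 2, and the 282 steps with at least 1 site had 0.91 and 0.86. The difference between steps without and with a site was 0.26 in replicate 1 and 0.33 in replicate 2 in the segment, against 0.07 and 0.17 in the comparison stretches. At least 1 site was found in 87.9% of the steps of the segment, against 82.5% in the comparison stretches. Median GC content of the 300-base steps was 36.8% on the left, 37.3% on the right and 36.3% in the comparison stretches. The correlation of ratio with GC content of the steps in the segment was -0.13 on each array. These matches rest on the ASM294v3 positions, taken without a shift.

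Positions just outside the bounds of the segment had raised medians too. These medians were higher than those just inside at 3 of the 4 bounds, and lower at the bound where the right side faces sap1. At the left outer bound the 5 positions inside had a median of 0.49 ± 0.06 (SD, n = 2), and the 5 outside 1.03 ± 0.01. At the right outer bound the 5 inside had 0.62 ± 0.22 and the 5 outside 0.90 ± 0.07. At the bounds facing sap1 the left side had 1.16 ± 0.17 inside and 1.58 ± 0.02 outside, and the right side 0.91 ± 0.08 inside and 0.66 ± 0.0025 outside.

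The segment carried 34 whole protein-coding genes, 20 on the left and 14 on the right. A further 5, brl2, sec8, cut15, asp1 and rpl101, cross one of its bounds. A gene's value is the mean over the positions that start in it, and 30 genes had at least 3 positions. Of these, 28 (93.3%) had a mean of at least 0.5 on both arrays, as had 14.0% of the 351 such genes on the first 1000000 bases of chromosome III, which include these 30, and 7 of the 268 genes of the comparison stretches. The share of 93.3% follows from how the segment was chosen. The median over the 30 genes was 0.88, against 0.05 over all 351. It was 0.94 on the left, where 16 of 17 genes reached 0.5, and 0.74 on the right, where 12 of 13 did. Genes ranged from -0.14 to 1.33 with an SD of 0.29, and the genes of the comparison stretches had an SD of 0.28. The ratio of DNA says nothing of how much RNA or protein these genes gave.

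**Figure D5:**
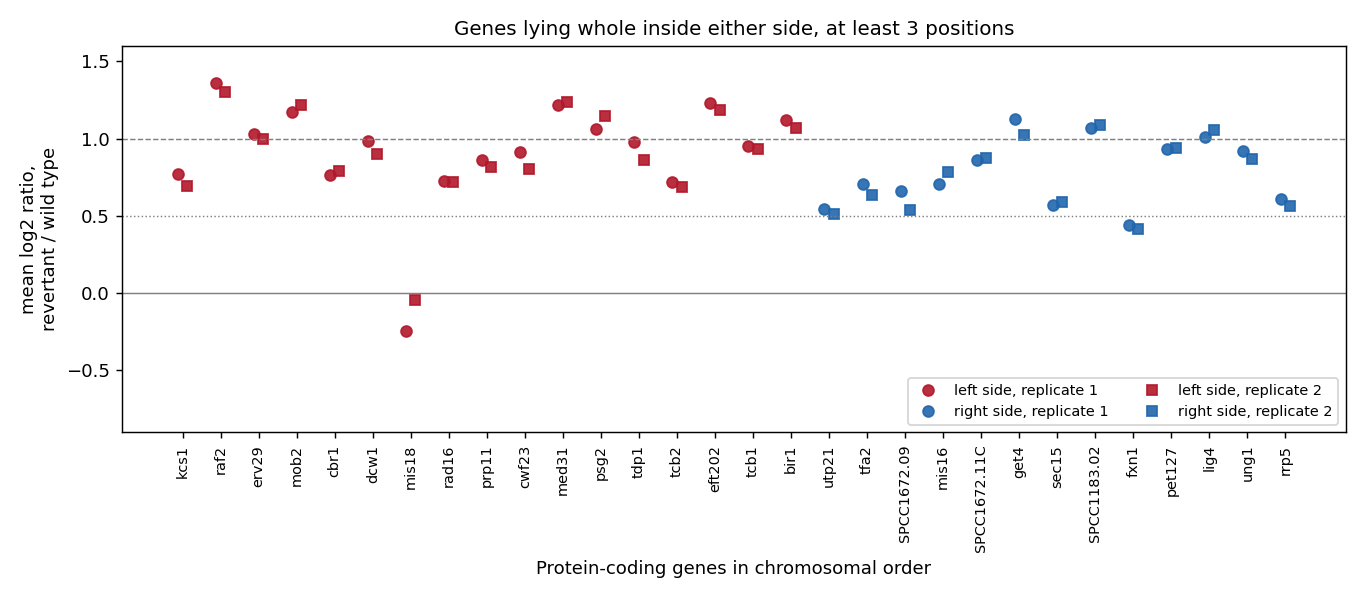
Mean log2 ratio over the positions of each gene (y axis) for the 30 genes with at least 3 positions, in chromosomal order (x axis). Red is the left side and blue the right side, circles are replicate 1 and squares replicate 2. The dotted line marks 0.5 and the dashed line 1. Only mis18 and fxn1 lie below 0.5 on both arrays, and raf2 is the highest at 1.36 in replicate 1 and 1.30 in replicate 2.

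Genes of chromosome segregation, chromatin and DNA repair were the largest role list. Its size depends on the words searched for and was not set against the genome, so that it shows no enrichment. Of its 7 genes 6 reached 0.5 on both arrays (median 0.89), against 28 of all 30 genes of the segment (93.3%). By positions that start in a gene the highest mean was that of raf2, a subunit of the CLRC complex that methylates histone H3 in heterochromatin, with 1.36 in replicate 1 and 1.30 in replicate 2 over 7 positions. Of its 7 positions 6 were above 0 on both arrays, and the exception, at 502200, had -0.0073 in replicate 1 and 0.015 in replicate 2. With step middles raf2 had 1.13 and stood below med31, cwf23, eft202 and mob2 (1.23, 1.22, 1.21 and 1.14), so that the order at the top depends on which positions are given to a gene. The survivin gene bir1, whose protein guides the chromosomal passenger complex to centromeres, had 1.12 in replicate 1 and 1.07 in replicate 2. All 11 positions of bir1 were above 0, from 0.46 to 2.05 as means of the arrays.

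The repair genes of this list lay on both sides of sap1. On the right, lig4, the DNA ligase of non-homologous end joining, had 1.01 in replicate 1 and 1.06 in replicate 2 over 11 positions. Its neighbour ung1, a glycosylase that removes uracil from DNA, had 0.92 in replicate 1 and 0.87 in replicate 2 over 5 positions. On the left, rad16, the XPF nuclease of nucleotide excision repair, had 0.72 on each array over 11 positions. These 3 genes were all above 0.5, and their order was not tested, since each rests on other positions and genes of the comparison stretches varied with an SD of 0.28.

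The Mis16-Mis18 complex helps to bring the histone CENP-A to centromeres, and the segment held the genes of 2 of its subunits, 1 on each side. On the right, mis16 had 0.70 in replicate 1 and 0.78 in replicate 2, with all 5 of its positions above 0. With loess within arrays mis16 had 0.46, below 0.5. On the left, mis18 had -0.24 in replicate 1 and -0.04 in replicate 2 over 3 positions. Those 3 positions had -0.77, 0.06 and -0.02 in replicate 1, and -0.60, 0.32 and 0.14 in replicate 2. All 3 were below the level of the left side on both arrays, the lowest of them at 514200, while the 36 positions within 5 kb of the gene had a median of 0.96 in replicate 1 and 0.93 in replicate 2.

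The 2 genes of the signalling list and the 2 of the transcription list reached 0.5. Of these, tfa2 did so only as the mean of positions that start in it. The inositol polyphosphate kinase gene kcs1, the first whole gene of the left side, had 0.77 in replicate 1 and 0.69 in replicate 2 over 13 positions. The gene of the kinase activator Mob2 had 1.18 in replicate 1 and 1.22 in replicate 2, with all 8 positions above 0. The Mediator subunit gene med31 had 1.22 in replicate 1 and 1.24 in replicate 2 over 3 positions, and tfa2, a subunit of the general transcription factor TFIIE, had 0.70 in replicate 1 and 0.63 in replicate 2 over 5. With the median of its positions tfa2 had 0.45, and with step middles in place of starts 0.37, an alternative added after seeing the data.

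The 3 genes of the membrane traffic list had a median of 0.71. The role lists go by product text and may miss genes of a role, such as the cargo receptor gene erv29, which is in no list. The tricalbins Tcb1 and Tcb2 tether the endoplasmic reticulum to the plasma membrane. Their genes lie on the left, tcb1 with 0.95 in replicate 1 and 0.93 in replicate 2 over 17 positions, and tcb2 with 0.72 and 0.69 over 15. On the right, sec15 encodes a subunit of the exocyst, which tethers secretory vesicles, and had 0.57 in replicate 1 and 0.59 in replicate 2. With the median of its positions sec15 had 0.40, below 0.5. The cytochrome b5 reductase gene cbr1, the only gene of the mitochondrial list, had 0.77 in replicate 1 and 0.79 in replicate 2. It entered that list by the word cytochrome, so that the list is no count of the mitochondrial genes of the segment.

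The only gene of the ribosome and translation list with enough positions was eft202, with 1.23 in replicate 1 and 1.18 in replicate 2. Its 3 tiled positions ran from 0.94 to 1.57 in replicate 1 and from 0.89 to 1.55 in replicate 2. The ribosomal protein genes rpl3601 and rpl35A01 had 2 positions each, too few for a call, as had spo13 and SPCP31B10.02. Over these positions rpl3601 had 0.17 in replicate 1 and 0.07 in replicate 2, and rpl35A01 -0.03 and 0.15, both near 0. The other 2 genes were higher, spo13 with 0.85 and 0.86 and SPCP31B10.02 with 0.96 and 0.83. The gene rpl3601 has a paralogue on chromosome II, rpl3602, with 87.3% identical coding bases, and rpl35A01 has rpl35A02 there with 78.7%.

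Among the genes in no list, 13 of 14 reached 0.5, with a median of 0.89. The highest were psg2 on the left, with 1.06 in replicate 1 and 1.14 in replicate 2, and on the right the glutathione S-transferase gene SPCC1183.02, with 1.07 and 1.09, and get4, a factor for insertion of tail-anchored membrane proteins, with 1.13 and 1.02. The lowest was fxn1, for the iron-sulphur cluster protein frataxin, with 0.44 in replicate 1 and 0.42 in replicate 2, and 0.81 as the median of its positions. Of its 6 positions, 4 were between 0.75 and 1.33 on both arrays, and 2 neighbours, at 596400 and 596700, had -0.43 and -0.95 in replicate 1, and -0.47 and -0.91 in replicate 2. Genes of 2 factors that process ribosomal RNA stood at the ends of the right side, utp21 with 0.55 in replicate 1 and 0.51 in replicate 2, and rrp5 with 0.61 and 0.56. The 8 genes not named by rule (erv29, dcw1, prp11, cwf23, tdp1, SPCC1672.09, SPCC1672.11C and pet127) all reached 0.5, at 0.60 to 1.01.

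Several genes of the segment encode subunits of complexes whose other genes lie elsewhere. Lists of 7 complexes or families with 30 genes were set side by side by the median of the positions within 5 kb of each gene, since the match of positions to the assembly was checked only on the first 1000000 bases of chromosome III. The 11 genes that lie in the segment or cross its bounds had 0.79 to 1.07, and the 19 others had -0.16 to 0.24, with 0 of the 19 at or above 0.5 on both arrays. Of the exocyst, sec8 and sec15 had 0.88 and 0.89, against -0.16 to 0.13 for 6 other subunits. Of the Mis16-Mis18 complex, mis16 and mis18 had 0.93 and 0.94, against -0.02 for mis19 and 0.21 for mis20. For CLRC, raf2 had 1.07, against -0.03 to 0.14 for 4 other subunits. For the passenger complex, bir1 had 1.02, against 0.24 for ark1, -0.14 for pic1 and -0.07 for nbl1. The end-joining gene lig4 had 0.89, against -0.15 to 0.21 for pku70, pku80 and xlf1. Of the tricalbins, tcb1 and tcb2 had 0.88 and 0.90, and tcb3 had 0.07. The kinase genes kcs1 and asp1, which make inositol pyrophosphates, had 0.94 and 0.79 and flank sap1 on opposite sides. These are levels of the surroundings of each gene, and some of the stretches overlap, as those of tcb1 and tcb2 do. By the positions that start in them, the same 11 genes ran from -0.14 (mis18, 3 positions) to 1.33 (raf2), with 0.58 for sec15. The ratios of the surroundings follow from where the genes lie and are no separate evidence of the gain.

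The segment also carried 55 annotated long noncoding RNA genes, 1 gene each of 5S ribosomal RNA and tRNA-Arg, and 1 box H/ACA small nucleolar RNA gene. For these genes every step that overlaps the gene was counted, whereas protein-coding genes were given the positions that start in them. No step starts inside the 5S gene or the tRNA-Arg gene. A spot may cover only part of its 300-base step. Taken as 60 bases from the start, the length used for the GC correction below, the spots of these steps end before both genes. The same holds for the first step of the small nucleolar RNA gene. Such ratios would then be those of DNA beside the genes. The step over the 5S gene (523289 to 523475, plus strand) had 0.65 in replicate 1 and 0.86 in replicate 2. The step over the tRNA-Arg gene (578847 to 578919, plus strand) had 1.81 in replicate 1 and 1.39 in replicate 2. The 2 steps over the small nucleolar RNA gene (583416 to 583605, plus strand) had a mean of 1.04 in replicate 1 and 1.08 in replicate 2. A single step has the spread of a single position, so that the order among these genes cannot be read as a difference in level.

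Over the pair of LTRs shown above, the steps from 499800 to 500700 had 1.16, -0.25, 0.60 and 0.31 in replicate 1, and 1.12, -0.25, 0.46 and 0.38 in replicate 2. Counting every step that overlaps an LTR, the LTR on the plus strand had a mean of 0.45 ± 0.01 (SD, n = 2) over 2 steps. That on the minus strand had 0.21 ± 0.01 over 3, of which 1 step is shared. Both means were below the median of the left side, and 1 of the steps was below 0 on both arrays. The step at 499800 starts before the LTR on the plus strand, in kcs1. With spots taken as 60 bases from the start, its spot ends in kcs1 and does not reach that LTR. Likewise the spot of the shared step, at 500100, does not reach the LTR on the minus strand. By starts, the rule used for genes, that LTR kept only the step at 500100 (-0.25 on each array). The LTR on the minus strand kept the steps at 500400 and 500700 (0.60 and 0.31 in replicate 1, 0.46 and 0.38 in replicate 2). The order of the LTRs was then reversed, so that it depends on which steps are counted. Leaving out the 14 positions over LTRs, eft202, rpl3601 and rpl35A01, an alternative added after seeing the data, gave a median of 0.96 for the whole segment, against 0.94 with them.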

How the data were processed

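DNA of 2 sap1-1 revertants (Cy5) was compared with wild-type DNA (Cy3) on 2 Agilent arrays on 1 slide, without a dye swap. Per the file headers, Agilent Feature Extraction 10.10.1.1 made the deposited processed signals, which are intensities after background subtraction and linear dye normalization. The deposited log10 ratio, per the file headers, is red over green and matched these signals within 0.001 with 0 exceptions. The authors' deposited series table holds log2 ratios as running means over neighbouring positions and served as an alternative. Deposited flags (0 or 1) mark outlier, saturated and dim spots.

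Log2 ratios of revertant over wild type were computed from the processed signals and centred on each array's median (0.09 and 0.08 before centring), leaving out 13 outlier positions. Medians over positions and means for genes were taken per array, and only genes with at least 3 positions were called. The number of arrays limits the precision, and SDs over the 2 arrays may be technical. Calls use a log2 ratio of at least 0.5 on both arrays. Normexp background correction used median spot signals in place of the intended means, since the files hold no mean. The members and lists were chosen with earlier results of these data known. Named genes are the 8 highest, the 5 lowest, the first and last of each side, and every gene of the role lists, which go by the annotation's product text, and the lists of complexes were added with results known. Loess and normexp used limma 3.58.1 in R 4.3.3, and other steps Python 3.11.15, numpy 2.4.6 and pandas 2.3.3. The code was tested on simulated data. Sequences and genes come from ASM294v3 (RefSeq).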

Additional observations from a re-analysis of the deposited data

How the results depend on the processing

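No paired analysis was possible because both arrays belong to 1 group. Of 65 alternative values of the 6 main results, 48 moved by less than the spread between arrays (for the gene count, by less than 1.5 times) and 17 moved by more, with 0 reversed. Part of the 48 was fixed in advance, so that this count does not measure robustness. With 2 arrays, leaving 1 out always moves a mean by less than their SD. Leaving out dim positions removed no member, and centring cannot change a difference or a spread. Loess within arrays gave 0.87 for both sides, 0.92 for the left, 0.83 for the right and 0.54 for the spread of positions, and normexp gave 0.91, 0.86 for the right and a spread of 0.62. The authors' deposited series table gave 0.93 for the right and a spread of 0.29, lower by construction since it averages neighbours. Means in place of medians gave 0.85 for both sides, 0.90 for the left, 0.77 for the right and 0.13 for left minus right. Centring on chromosome III gave 0.91 for both sides and 0.87 for the right. Left minus right was 0.11 with GC correction, which used the first 60 bases of each position and not the whole step. In an alternative chosen after seeing the data, it was 0.040 within brightness classes. With each replicate left out, the values were 0.92 to 0.96 for both sides, 0.95 to 1.01 for the left, 0.90 to 0.91 for the right, 0.05 to 0.10 for left minus right, 0.63 to 0.65 for the spread, and 28 to 28 genes. The number of genes at the fold was between 21 (at 0.7) and 29. Of 300 alternative gene values 110 moved by more than the spread between arrays, and 0 of the 28 genes at the fold changed sign. The 300 include values that could not move by more, those with a replicate or with dim positions left out. Below the fold, mis18 (-0.14) was 0.41 in the authors' series table, 0.063 with gene medians and 0.20 with step middles (added after seeing the data), and fxn1 (0.43) reached 0.59, 0.53 with loess and 0.81 with medians. The fold was lost by mis16 (0.46) with loess, by sec15 (0.40) and tfa2 (0.45) with medians, by tfa2 (0.37) and utp21 (0.51, under 0.5 on 1 array) with step middles, and by utp21 at 0.50 on normexp and on chromosome III centring. The cause of these moves was not tested.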
